A study of Mus musculus with 6 samples.

Results

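The genes described here are the FOS and JUN genes, which encode the subunits of the transcription factor AP-1, and 3 further genes of the immediate early class. They were chosen by symbol, with earlier results of these data known. The genes are Fos, Fosb, Fosl1, Fosl2, Jun, Junb, Jund, Egr1, Ier2 and Ier3, 10 of the 53465 genes in the count tables. RNA was sequenced from Royan B20, an established line of mouse embryonic stem cells, in 3 libraries of BMP-inhibited cultures (R2i_BMPi) and 3 of R2i control cultures (R2i_control). All 6 cultures stood on 0.1% gelatin and had gone through 7 passages in R2i/LIF. R2i holds 1 µM of the MEK inhibitor that the labels spell PD0329501 and 10 µM SB431542, which blocks the receptors of TGF-beta, activin and nodal, so these agents were present in the controls too. To the BMP-inhibited cultures were added noggin at 250 nM, a secreted protein that binds BMP ligands, and dorsomorphin at 5 µM, which inhibits the kinase domain of type I BMP receptors and other kinases as well. Noggin and dorsomorphin were always given together, so their effects cannot be told apart, and the labels do not say for how long they were present. All libraries come from 1 cell line.

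AP-1 is a dimer. FOS proteins bind DNA only when paired with a JUN protein, whereas JUN proteins also pair with each other and with other proteins of the basic leucine zipper (bZIP) class. Immediate early genes are transcribed within minutes of a growth factor or stress signal without new protein synthesis, and their mRNAs are short-lived. In many cell types their induction runs through MEK and ERK kinases and through serum response factor, while JNK and p38 kinases act on JUN and on its partners.

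The libraries held 31474666 to 35322844 gene counts. The spread within a group was wider under BMP inhibition (chi-square per gene of at least 8.42 between BMP-inhibited replicates and at most 3.07 between control replicates), and BMP-inhibited replicate 2 stood apart on the second principal component (27.2, against -20.4 and -4.43 for the other BMP-inhibited libraries). Without that library 9 of the 10 genes still rose. Mitochondrial transcripts took 1.53% to 1.67% of counts in BMP-inhibited libraries and 0.929% to 0.999% in controls. Markers of mouse embryonic stem cells were abundant in both groups: 10 markers summed to 4866 to 5117 CPM in BMP-inhibited libraries and 5390 to 5557 CPM in controls (CPM, counts scaled to library depth, here with TMM factors). Of these markers 2 rose, Utf1 (0.87 on the log2 scale) and Dppa5a (0.83), and 6 fell: Klf4 (-0.81), Nanog (-0.47), Esrrb (-0.32), Tdgf1 (-0.26), Sox2 (-0.25) and Tfcp2l1 (-0.13). Of 10 trophoblast markers 8 were tested, 6 rose and 0 fell, or 5 of 7 without Hand1, whose controls alone would not have passed the filter on low counts. Over all genes tested, 32.5% were called higher and 31.7% lower. The sums of this list were 369 to 447 CPM in BMP-inhibited libraries against 216 to 223 CPM in controls. Most of the control sum was Tfap2c, at 137 CPM on average in BMP-inhibited cells and 128 CPM in controls. Most of the rise in the sum was Krt8 and Krt18 (log2 fold changes 2.31 and 2.70). Hand1 (5.92), Gata3 (2.73), Gata2 (1.86) and Tead4 (0.47) also rose, while Tfap2c (0.10) and Eomes (0.04) did not pass. In this list Cdx2 and Elf5 stayed under 1 CPM in every library. Endoderm markers summed to 68.9 to 79.6 CPM in BMP-inhibited libraries and 177 to 186 CPM in controls, with 2 of 8 tested higher and 3 lower. Most of these sums was Lama1, at 48.2 CPM on average in BMP-inhibited cells and 145 CPM in controls (log2 fold change -1.59). Sox7 (-1.08) and Gata4 (-0.74) also fell, while Gata6 (1.63) and Pdgfra (1.13) rose. Afp, Foxa2 and Sox17 were under 1 CPM in every library. Fibroblast markers summed to 9.59 to 9.73 CPM in BMP-inhibited libraries and 5.76 to 7.15 CPM in controls, with 2 of 4 tested higher, or 1 of 3 without Postn, which passed that filter through BMP-inhibited libraries alone. Of the 10 fibroblast markers 7 were under 1 CPM in every library, and Fap had 0 counts. The 6 blood and macrophage markers summed to 23.9 to 29.4 CPM in BMP-inhibited libraries and 17.3 to 18.4 CPM in controls. Most of these sums was Cd68, at 25.5 CPM on average in BMP-inhibited cells and 17.9 CPM in controls. Of this list 2 were tested and rose, Cd68 and Csf1r, of which Csf1r passed the filter through BMP-inhibited libraries alone. In this list Adgre1, Lyz2 and Tyrobp had 0 counts in all libraries. Whether cells of these types were present, and what they would contribute to the values below, was not tested. In bulk RNA more expressing cells and more RNA per cell cannot be told apart.

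Of the 10 genes 9 rose when BMP inhibitors were added, and Ier2 did not pass the test. The rise was at least 2-fold for 6 of them: all 4 FOS genes, Jun and Egr1. Junb, Jund and Ier3 rose by less. The test was edgeR's quasi-likelihood F test over 15951 genes, called at an adjusted p of 0.05. It called 64.2% of all genes tested, 32.5% as higher and 31.7% as lower, so a call by itself is common in this comparison. By comparison, 8.01% of all genes tested were called higher by at least 2-fold and 7.46% lower by at least 2-fold. The groups did not overlap for 8 of the 10 genes, all higher; over all genes tested this held for 68.6%, and for 34.5% with the BMP-inhibited libraries higher. The median log2 fold change was 1.24 over the 10 genes and -0.00 over all genes tested. Because the 10 genes were chosen with earlier results of these data known, no p was taken over the set. Fosb and Fosl1 entered the test through the BMP-inhibited libraries alone, since their controls did not reach the minimum of 0.302 CPM in 3 libraries, and they could not have been found lower. Without those genes 7 of 8 rose and the median was 0.85. Fosb and Fosl1 are also among the 6 genes that rose by at least 2-fold. Under the alternatives that kept all 10 genes, 8 or 9 rose and 0 fell. The labels name the libraries of a group biological replicates but not how the cultures were separated, so p-values measure the spread between these libraries.

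**Figure D1:**
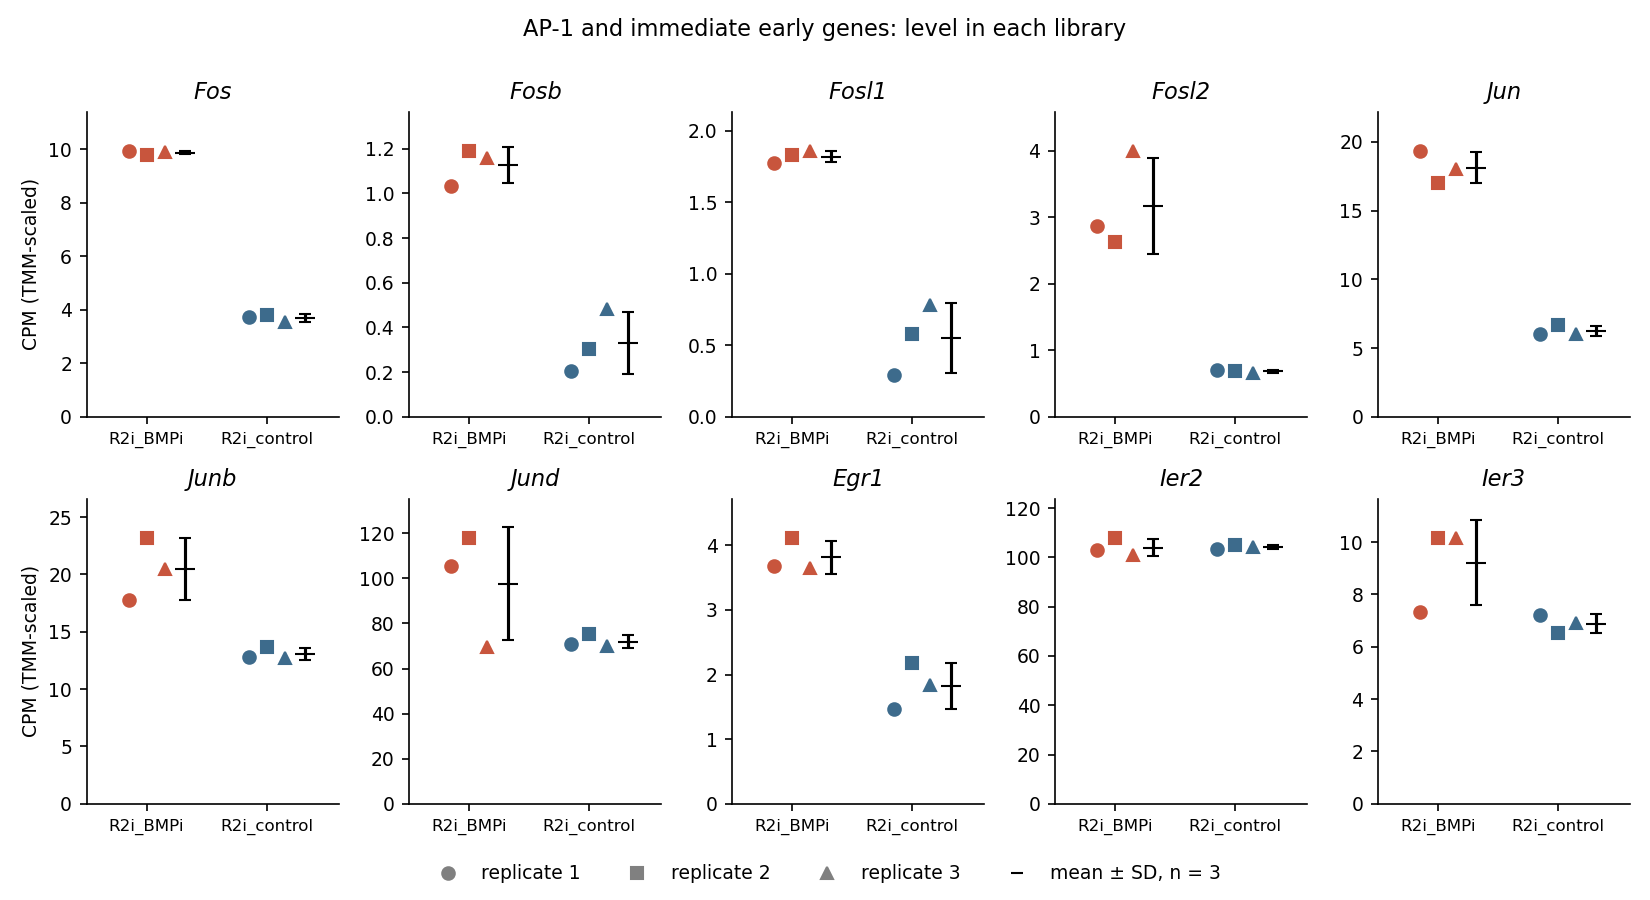
Level of each of the 10 genes in every library, in TMM-scaled CPM on axes that start at 0, with R2i_BMPi libraries in red on the left and R2i_control libraries in blue on the right of each panel; symbols mark replicates and the bar is the mean ± SD (n = 3). The groups are apart for 8 genes and overlap for Jund and Ier2.

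Fos, Jun and Junb are shown with the 150 bases before their start site, because they are the AP-1 genes at the highest levels per length in whose window a motif was found. They were chosen with their motif matches and values known. The sequences are from RefSeq on GRCm38.p6, read 5′ to 3′ on the gene's strand: Fos from chr12:85473740-85473889 on the plus strand, Jun from chr4:95052223-95052372 and Junb from chr8:84978749-84978898, both on the minus strand. The RefSeq start of Junb, base 84978748, lies upstream of its GENCODE gene start. Capitals mark TGACG, the half-site of the cyclic AMP response element, the element TGACATCA, a variant AP-1 and ATF site, and the TATA motif TATAAA.
Fos: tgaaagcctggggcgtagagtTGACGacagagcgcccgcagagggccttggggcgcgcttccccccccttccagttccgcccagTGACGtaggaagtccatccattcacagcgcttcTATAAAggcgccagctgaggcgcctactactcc
Jun: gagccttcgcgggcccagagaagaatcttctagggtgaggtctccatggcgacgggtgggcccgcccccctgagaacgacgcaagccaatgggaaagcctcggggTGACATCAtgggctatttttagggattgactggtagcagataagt
Junb: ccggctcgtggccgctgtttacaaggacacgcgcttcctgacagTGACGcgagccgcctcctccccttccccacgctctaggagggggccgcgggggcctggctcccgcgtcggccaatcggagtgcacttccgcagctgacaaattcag
Of the 10 genes 7 have an entry in that table, while Fosl1, Egr1 and Ier2 have none and were not searched. The 250 bases before each start were searched on both strands. TGACG was found before Fos, Fosb and Junb, 3 of 7, and in 17.8% of all 32851 entries. Fos holds it at bases -66 to -62 and -129 to -125 from the start, and Junb at -106 to -102. TGACATCA was found before Jun alone of the 7, at -45 to -38, and in 2.93% of all entries. TATAAA was found before Fos alone, in 12.4% of all entries. The full AP-1 site TGACTCA (4.46% of entries), the full cyclic AMP response element TGACGTCA (1.55%, which includes TGACG) and the CArG box, the binding site of serum response factor (1.47%), were in none of the 7 windows. A match is a match of letters, and its absence speaks for these windows alone.

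Among the FOS genes, Fos is the founding member and the one most studied as an immediate early gene (ENSMUSG00000021250, GRCm38 chr12:85473890-85477273). Fos stood at 9.91, 9.79 and 9.90 CPM in BMP-inhibited libraries against 3.75, 3.81 and 3.53 CPM in controls. For this gene, whose promoter with TGACG and TATAAA is printed above, every BMP-inhibited library was above every control, and the replicates lay close together in both groups. The log2 fold change was 1.42 (SE 0.12, adjusted p = 3.94e-08), a 2.67-fold rise.

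Fosl2, which encodes FRA2 (ENSMUSG00000029135, chr5:32135801-32157842), was measured at 2.87, 2.63 and 3.99 CPM in BMP-inhibited libraries and at 0.702, 0.690 and 0.663 CPM in controls. BMP-inhibited replicate 3 was highest, and the lowest BMP-inhibited library was 3.75 times the highest control. Of the 10 genes it had the highest estimate, a log2 fold change of 2.20 (SE 0.24, 95% interval 1.68 to 2.72, adjusted p = 1.13e-06).

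Fosl1, which encodes FRA1 (ENSMUSG00000024912, chr19:5447547-5455946), and Fosb (ENSMUSG00000003545, chr7:19302696-19310051) were scarce. Both proteins pair with JUN as FOS does, and FRA1 is needed for the mouse placenta. Fosl1 had 55, 57 and 61 counts in BMP-inhibited libraries and 10, 21 and 26 counts in controls. Fosb had 32, 37 and 38 counts in BMP-inhibited libraries and 7, 11 and 16 counts in controls. The groups did not overlap for either gene, and the controls spread widely for so few reads. Fosl1 rose by 1.72 on the log2 scale (SE 0.31, adjusted p = 0.000166) and Fosb by 1.76 (SE 0.36, adjusted p = 0.000447). The intervals, 1.05 to 2.38 for Fosl1 and 1.00 to 2.53 for Fosb, overlap those of Fos and Fosl2. Exons of Fosl1 overlap the antisense gene Ccdc85b, at 8.56 ± 1.79 CPM in BMP-inhibited cells and 10.5 ± 1.11 CPM in controls (SD, n = 3 each), which did not pass.

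Among the JUN genes, Jun (ENSMUSG00000052684, chr4:95049034-95052222) encodes c-JUN, the main target of JNK and a factor that binds its own promoter. Jun was at 19.3, 17.0 and 18.1 CPM in BMP-inhibited libraries, against 6.06, 6.65 and 6.03 CPM in controls. The groups were widely separate, with the lowest BMP-inhibited library at 2.56 times the highest control. Its log2 fold change of 1.54 (SE 0.10) had the smallest p of the 10 genes (adjusted p = 2.11e-09). The antisense gene Junos, which overlaps it, held 5, 6 and 7 counts in BMP-inhibited libraries and 20, 7 and 7 counts in controls.

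Junb (ENSMUSG00000052837, chr8:84974484-84978718) encodes a JUN protein that activates transcription less than c-JUN at many sites. It stood at 17.8, 23.1 and 20.5 CPM in BMP-inhibited libraries, against 12.8, 13.7 and 12.7 CPM in controls. Here the gap was narrower, the lowest BMP-inhibited library being 1.30 times the highest control, and the log2 fold change was 0.65 (SE 0.10, adjusted p = 2.58e-05). Its exons overlap the antisense gene Prdx2, at 251 ± 11.5 CPM in BMP-inhibited cells and 256 ± 2.86 CPM in controls (SD, n = 3 each). The strand setting used in counting is not given in the sources used here, so reads of these overlapping pairs cannot be told apart with certainty.

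Jund (ENSMUSG00000071076, chr8:70698949-70700616), the JUN gene that is expressed most steadily in resting cells, was the most abundant JUN gene per length in every library. It was at 106, 118 and 69.6 CPM in BMP-inhibited libraries and at 70.8, 75.1 and 69.8 CPM in controls. BMP-inhibited replicates 1 and 2 were above all controls, while replicate 3 was below all of them. The log2 fold change of 0.44 (SE 0.12) passed with an adjusted p of 0.00589, but not with DESeq2, where it was 0.45 (adjusted p = 0.0614). Over the alternatives its adjusted p ran from 2.18e-14 to 0.0614. Without BMP-inhibited replicate 2 it was 0.29 and without replicate 3 it was 0.64, a range set by these libraries. Jund also overlaps the antisense gene Gm11175, which had 8 to 12 counts in each library.

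The 3 remaining genes did not move alike. Egr1 (ENSMUSG00000038418, chr18:34859823-34864984), a zinc-finger transcription factor whose induction follows ERK activity in many cells, was at 3.68, 4.11 and 3.65 CPM in BMP-inhibited libraries and at 1.46, 2.18 and 1.84 CPM in controls. The groups did not overlap, and the log2 fold change was 1.06 (SE 0.19, adjusted p = 0.000154). These levels were low in both groups. Every culture held the MEK inhibitor, with none lacking it for comparison, so its part in the Egr1 levels was not tested.

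Ier3 (ENSMUSG00000003541, chr17:35821684-35822923), which encodes a stress-inducible regulator of cell survival also called IEX-1, was at 7.33, 10.1 and 10.1 CPM in BMP-inhibited libraries, against 7.23, 6.51 and 6.91 CPM in controls. BMP-inhibited replicate 1 was only 1.01 times the highest control, and the other two were clearly above. The log2 fold change was 0.42 (SE 0.13, adjusted p = 0.0106). The call was lost without BMP-inhibited replicate 3 (log2 fold change 0.35, adjusted p = 0.0550) and without control replicate 2 (0.37, adjusted p = 0.0535), over a range of adjusted p from 0.00047 to 0.0550.

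Ier2 (ENSMUSG00000053560, chr8:84661331-84662852), a small nuclear protein gene induced together with Fos in many systems, was level between groups. It had 103, 108 and 101 CPM in BMP-inhibited libraries and 103, 105 and 104 CPM in controls. The groups overlapped, and the estimate was -0.00 on the log2 scale (SE 0.04, adjusted p = 0.941). Its 95% interval of -0.10 to 0.09 lies below the intervals of the other 9 genes, whose lower ends ran from 0.14 upward. The sign of this estimate changed with the scaling, within -0.06 to 0.02 over all alternatives.

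**Figure D2:**
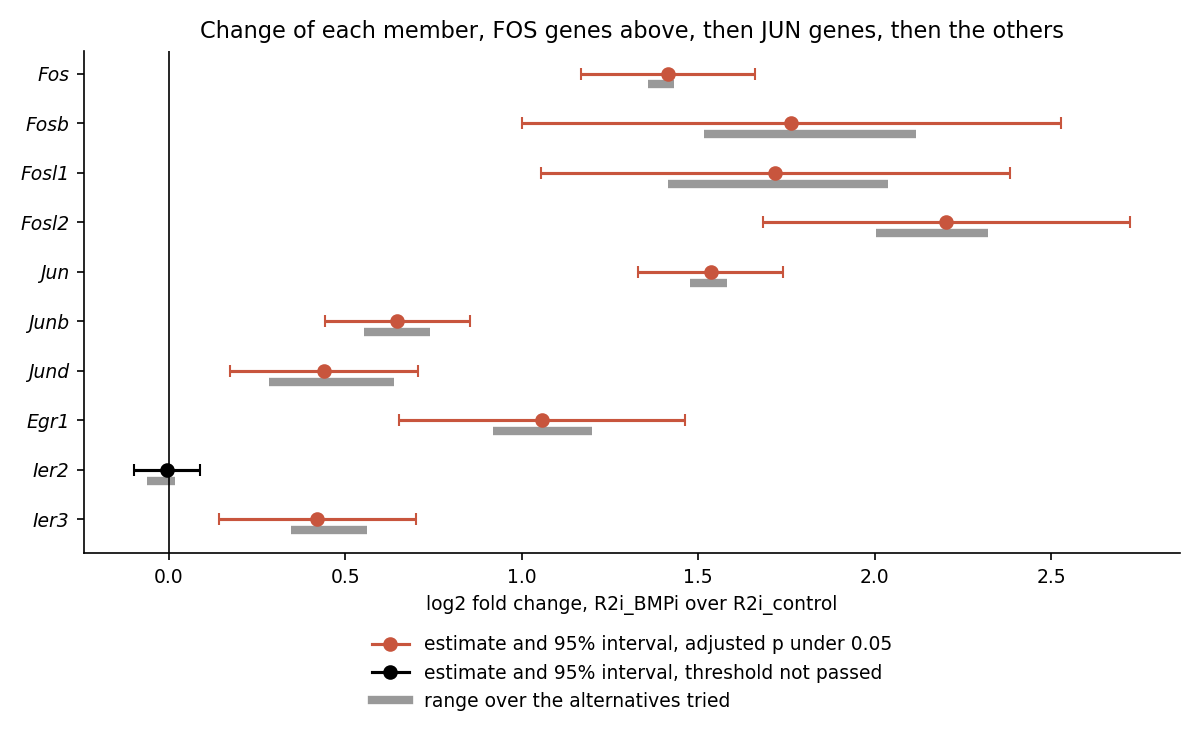
Log2 fold change of each gene, R2i_BMPi over R2i_control, with its 95% interval (points and thin bars) and the range of the estimate over the alternatives tried (grey bars). The FOS genes lie between 1.42 and 2.20, Jun at 1.54, and Ier2 at zero with an interval of -0.10 to 0.09.

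Levels can be set side by side between genes once they are divided by transcript length, here as RPKM, CPM per kilobase of merged exons. In BMP-inhibited cells the order from high to low was Ier2 (68.3 ± 2.24 RPKM), Jund (58.6 ± 15.0), Junb (8.90 ± 1.16), Ier3 (8.14 ± 1.44), Jun (5.68 ± 0.361), Fos (4.20 ± 0.0282), Fosl1 (0.896 ± 0.0204), Egr1 (0.851 ± 0.0569), Fosl2 (0.327 ± 0.0748) and Fosb (0.180 ± 0.0131), each as SD with n = 3. In that order the ranges of mean ± SD overlapped for Ier2 and Jund, Junb and Ier3, and Fosl1 and Egr1, although Ier2 was above Jund in every library. In controls Ier2 had 68.5 ± 0.592 RPKM and Jund 43.1 ± 1.68 RPKM, ahead of Ier3 at 6.08 ± 0.317 and Junb at 5.68 ± 0.233. Jun followed at 1.96 ± 0.110, Fos at 1.57 ± 0.0623, Egr1 at 0.407 ± 0.0799, Fosl1 at 0.272 ± 0.121, Fosl2 at 0.0708 ± 0.00205 and Fosb at 0.0529 ± 0.0225 RPKM. Here the ranges of mean ± SD overlapped for Ier3 and Junb, Egr1 and Fosl1, and Fosl2 and Fosb. Divided by the longest transcript in place of merged exons, Junb stood above Ier3 in both groups beyond their SDs, at 11.3 ± 1.48 against 8.14 ± 1.44 RPKM in BMP-inhibited cells and at 7.22 ± 0.296 against 6.08 ± 0.317 RPKM in controls. By that length Fosl1, at 0.977 ± 0.0222 RPKM, also cleared Egr1 in BMP-inhibited cells. Jund was thus far above Jun and Fos in both groups, and Jun was above Fos in both.

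Summed over the 4 FOS genes, the level per length was 5.60 ± 0.105 RPKM in BMP-inhibited cells and 1.97 ± 0.107 RPKM in controls (SD, n = 3 each), 2.85 times as much. The 3 JUN genes summed to 73.1 ± 15.3 RPKM in BMP-inhibited cells and 50.8 ± 2.02 RPKM in controls, a ratio of 1.44, with BMP-inhibited replicate 3 at 56.3 RPKM and the highest control at 53.1 RPKM. JUN transcripts therefore outnumbered FOS transcripts 13.1 ± 2.95 to 1 in BMP-inhibited cells and 25.9 ± 1.46 to 1 in controls, and the ranges, 9.84 to 15.6 and 24.3 to 27.1, did not overlap. Within the FOS sum, Fos held 75.0 ± 1.23% in BMP-inhibited cells and 80.1 ± 6.31% in controls. Fosl2 held 5.83 ± 1.21% in BMP-inhibited cells and 3.61 ± 0.293% in controls, the 3 BMP-inhibited libraries all being above the controls. Within the JUN sum, the share of Jun was 8.04 ± 1.94% in BMP-inhibited cells and 3.86 ± 0.0645% in controls, and that of Jund 79.5 ± 4.61% in BMP-inhibited cells and 85.0 ± 0.101% in controls. These sums and shares are descriptions with no test, and dividing by the longest transcript in place of merged exons left the JUN to FOS ratio at 11.8 ± 2.62 in BMP-inhibited cells and 23.4 ± 1.38 in controls.

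**Figure D3:**
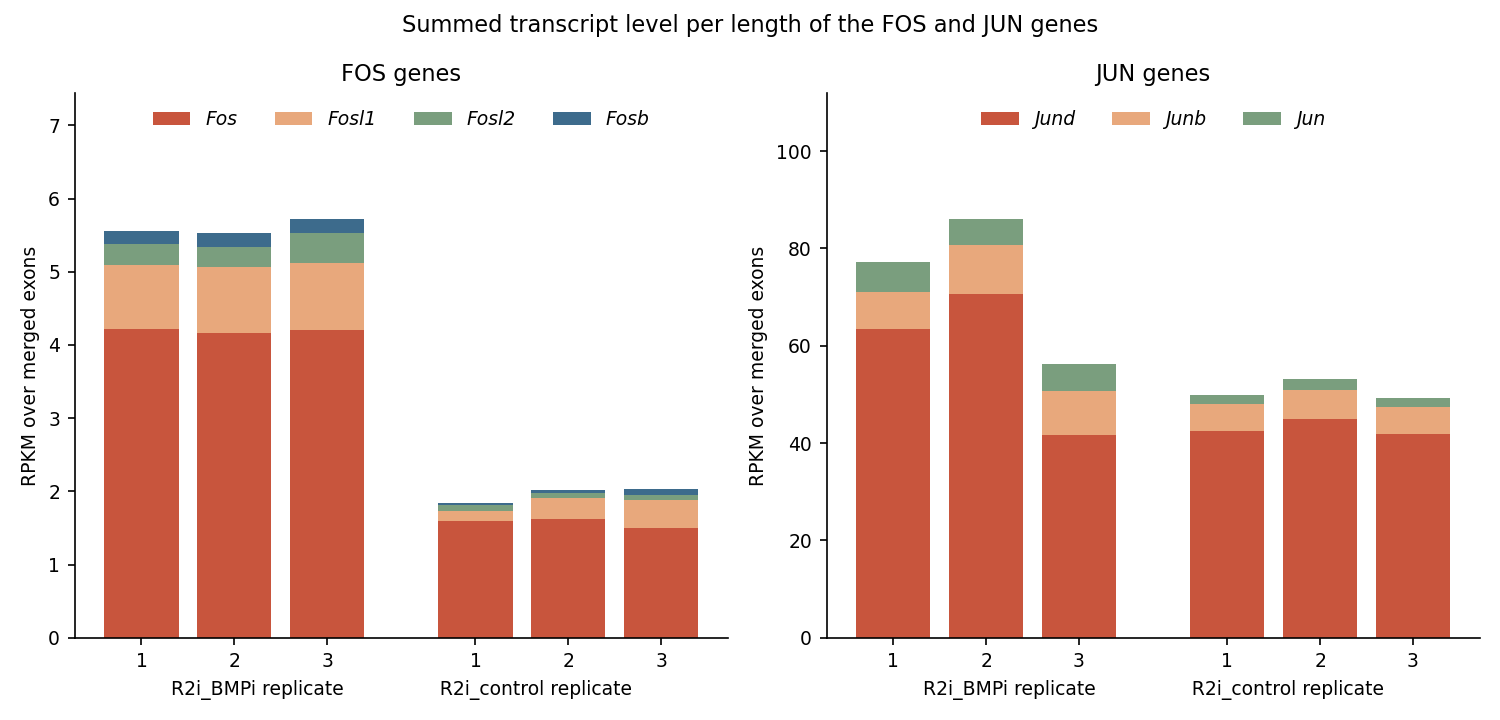
Level per length in each library, in RPKM, stacked by gene for the FOS genes on the left and the JUN genes on the right, with the 3 R2i_BMPi libraries before the 3 R2i_control libraries in each panel. The FOS sum is 5.60 RPKM on average in BMP-inhibited cells against 1.97 RPKM in controls, and the JUN sum varies mainly with Jund, which is low in BMP-inhibited replicate 3.

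Genes around AP-1 were taken as 7 further lists, chosen with earlier results of these data known. In the list of other immediate early genes 26 of 35 tested rose and 6 fell, or 24 of 33 without Dusp2 and Nr4a3, which entered the test through BMP-inhibited libraries alone. The median was 0.87 on the log2 scale, or 0.86 without those genes, and 91.4% of the list was called, against 64.2% of all genes tested. Ccn1, which encodes a matrix protein that is also a YAP target, was at 94.2 ± 4.10 CPM in BMP-inhibited cells and 23.1 ± 1.11 CPM in controls (SD, n = 3 each), a log2 fold change of 2.03 (SE 0.06). Its relative Ccn2 rose by 1.72 (SE 0.06), the kinase gene Plk2 by 1.57 (SE 0.07) and the growth arrest gene Gadd45g by 2.94 (SE 0.14). Against this pattern, and picked out after their values were seen, Dusp1, Atf3 and Maff did not pass, with log2 fold changes of -0.11, 0.01 and -0.09. Those that fell were Klf10, Ppp1r15a, Gadd45a, Btg1, Nfkbia and Klf2, from -0.84 for Klf10 to -0.15 for Klf2. Egr2, Egr3 and Egr4, the relatives of Egr1, had too few counts to be tested. Ccn2 overlaps an antisense gene.

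Most of the other bZIP partners of AP-1 were not called: 2 of 13 tested rose, 2 fell and 9 did not pass, with a median of 0.03. The share called was 30.8%, against 64.2% of all genes tested, and 15.4% were higher, against 32.5%. Without Batf and Batf3, which entered the test through BMP-inhibited libraries alone, 1 of 11 rose. Atf3 and Maff, given above among the other immediate early genes, are on this list as well. Jdp2, which encodes a repressor that pairs with JUN proteins, fell to 12.8 ± 1.33 CPM in BMP-inhibited cells, against 32.7 ± 0.469 CPM in controls (SD, n = 3 each; log2 fold change -1.36, SE 0.08, adjusted p = 1.11e-09). Atf4, the main factor of the amino acid stress response, had a log2 fold change of -0.38 (SE 0.04). Batf3, a partner of JUN known from dendritic cells, rose 6.05-fold, with 18, 33 and 23 counts in BMP-inhibited libraries and 5, 3 and 5 counts in controls. Mafg rose by 0.14 (SE 0.05, adjusted p = 0.0175), and that call was lost when scaling used library totals (adjusted p = 0.128). It was also lost when BMP-inhibited replicate 3, control replicate 1 or control replicate 2 was left out (adjusted p = 0.0618, 0.117 and 0.0737). Jdp2 overlaps an antisense gene and Mafg a gene on the same strand.

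Upstream of the immediate early genes, 5 of 11 SRF, ternary complex and CREB factors rose and 2 fell (median 0.19), a share called of 63.6% that is close to that of all genes tested. Of those that fell, Elk1 (-0.14, adjusted p = 0.0418) was lost under several alternatives. Srf itself, which encodes serum response factor, rose by 0.99 (SE 0.06), to 88.5 ± 5.25 CPM in BMP-inhibited cells against 44.5 ± 1.87 CPM in controls (SD, n = 3 each). Mef2d and Atf1 rose by 0.51 and 0.35, while Creb1, the cyclic AMP response factor, had a log2 fold change of -0.48 (SE 0.06). MAP kinases and their kinases were called about as often as all genes: of 20 tested 5 rose and 8 fell, 65.0% against 64.2% (median 0.01, or -0.00 without Mapk10, which entered the test through BMP-inhibited libraries alone). Mapk7, which encodes ERK5, rose by 0.40 (SE 0.05), while Mapk3, which encodes ERK1, had a log2 fold change of -0.54 (SE 0.06), Map3k5 one of -0.79 (SE 0.10) and Mapk12 one of -1.16 (SE 0.15). The JNK genes and their kinases, picked out after their values were seen, did not move together: Mapk8 rose by 0.42 and Map2k4 by 0.33, Mapk9 fell by 0.14 (adjusted p = 0.0236), and Mapk10 (0.72) and Map2k7 (0.05) did not pass. Transcript levels do not give kinase activity. Mef2d and Mapk7 overlap antisense genes.

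Of 14 genes that act on AP-1 proteins or on immediate early mRNAs 5 rose and 3 fell (median 0.08), and the shares called (57.1%) and higher (35.7%) were near those of all genes tested. Dusp10, a phosphatase that inactivates JNK and p38, rose to 5.17 ± 0.554 CPM in BMP-inhibited cells against 0.732 ± 0.197 CPM in controls (SD, n = 3 each; log2 fold change 2.81, SE 0.22). Dusp16, another JNK phosphatase, rose by 0.74 (SE 0.07), Fbxw7, a ubiquitin ligase subunit that targets c-JUN, by 0.56 (SE 0.05), and Cnot7, a deadenylase, by 0.55 (SE 0.05). Dusp1, on this list as well, is given above. Cnot7 overlaps an antisense gene.

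Of 17 tested genes on a list of known AP-1 targets 10 rose and 3 fell (median 0.29), with 58.8% higher against 32.5% of all genes tested, or 9 of 15 (median 0.21) without Cd44 and Sphk1, which entered the test through BMP-inhibited libraries alone. Krt18 rose by 2.70 (SE 0.10); it is also one of the trophoblast markers whose sum was higher. Cdkn1a, a cell cycle inhibitor and p53 target, rose by 0.76 (SE 0.05), and Hbegf, a growth factor gene that is on the immediate early list too, by 0.95 (SE 0.10). Timp1, an inhibitor of matrix proteases, fell to 32.5 ± 2.87 CPM in BMP-inhibited cells against 60.1 ± 1.47 CPM in controls (SD, n = 3 each; log2 fold change -0.89, SE 0.07). The protease genes Mmp3 and Mmp10 had 0 counts in all libraries, and 7 of the 24 genes listed were too scarce to be tested. Cdkn1a overlaps an antisense gene.

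Heat-inducible chaperones were higher as well: 8 of 8 rose, where 32.5% of all genes tested were called higher. Their median was 0.62, with Hsph1, Hspb1, Bag3 and Hspa8 at 0.83, 0.77, 0.73 and 0.52. Their part, and that of the trophoblast markers, in the AP-1 values was not tested. Hspa8 overlaps small nucleolar RNA genes on the same strand.

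**Figure D4:**
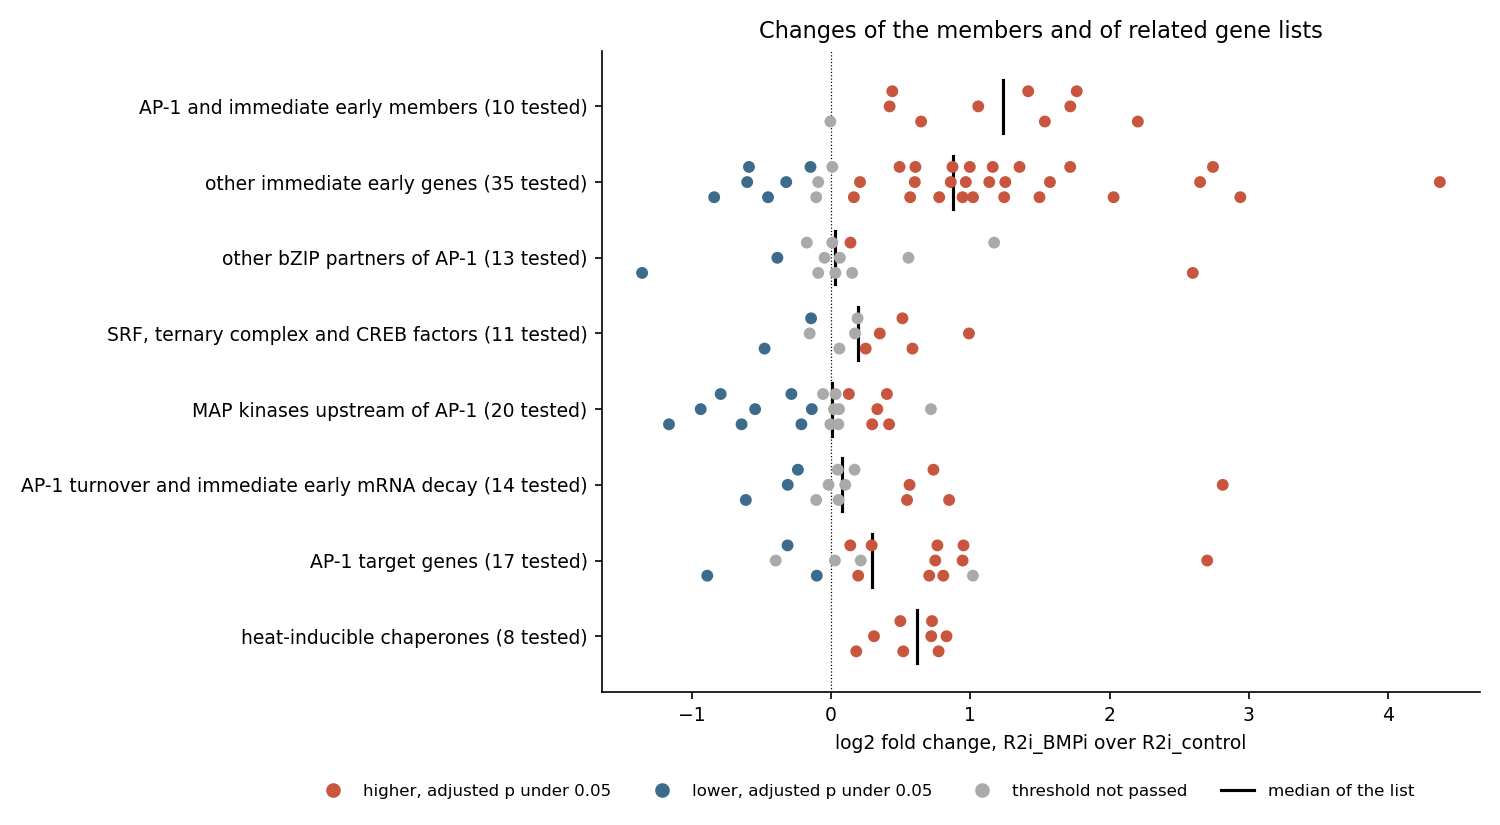
Log2 fold change, R2i_BMPi over R2i_control, of each gene tested in the 10 AP-1 and immediate early genes and in the 7 further lists; red points passed as higher, blue as lower, grey did not pass, and the black bar is the list's median. Medians are 1.24 for the 10 genes, 0.87 for other immediate early genes and 0.03 for other bZIP partners, or 0.85, 0.86 and 0.01 without genes that passed the filter on low counts through R2i_BMPi alone; the point farthest to the right is Nr4a3, with 17, 12 and 16 counts in BMP-inhibited libraries and 1, 1 and 0 in controls, so its place depends on the prior count.

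Genes with the most similar profile were sought for the member with the highest mean CPM among the FOS, JUN and other genes. Likeness was Pearson's r of log2 CPM over the 6 libraries, among 13478 tested genes with a mean of 1 CPM or more. Closest to Fos were Slco2a1, Fubp3 and Lamb1 (r of 0.9999, 0.9998 and 0.9995). For Jund, with its low BMP-inhibited replicate 3, they were Robo1, H2afj and Pdgfrl (r of 0.985, 0.985 and 0.978). For Ier2 they were Gm14322, Adck5 and Ppwd1 (r of 0.985, 0.979 and 0.970). The libraries form 2 groups, so r follows the group difference where there is one, and these values describe likeness in 6 libraries only.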

How the data were processed

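Poly(A) RNA was sequenced with a strand-marking kit on an Illumina HiSeq, per the labels' protocols. The authors deposited raw read counts per gene, 1 table per library, as whole numbers with differing totals. Tools named in the submitters' processing notes, with no role, are HTSeq 0.9.1, STAR 2.6.1, CASAVA 1.8.2, DESeq2 and cutadapt 1.4.2; the build is GRCm38.p6. Annotation release and strand setting are not given in the sources used here. Rows that name no gene held 25.6% to 26.4% of reads and were left out.

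Symbols and exons came from GENCODE M21 on GRCm38 (53360 of 53465 identifiers matched). Genes were filtered with edgeR 4.0.16 (minimum count 10, total 15) and scaled with TMM factors. Its quasi-likelihood F test was two-sided, and p-values were adjusted over 15951 genes by Benjamini and Hochberg. Standard errors and 95% intervals derive from the coefficient, its F statistic and its degrees of freedom. The test was tested on simulated data. Alternatives were DESeq2 1.42.0, limma-voom (limma 3.58.1), other scalings and filters, a replicate block and leaving out each library. Software was Python 3.11.15 and R 4.3.3.

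The members and lists were chosen with earlier results of these data known. Besides the 10 members, the text names the 4 genes with the smallest p in each list, the most similar profiles, and others said to be chosen later. Counts limit the precision: Fosb had 7 to 38 counts per library.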

Additional observations from a re-analysis of the deposited data

How the results depend on the processing

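No alternative reversed a call among the 10 genes. Of their values under the alternatives, 134 kept their side of the threshold, with a change of sign for Ier2 alone, which passed under none, and 3 lost the call: Jund with DESeq2 (0.446, adjusted p = 0.0614) and Ier3 without BMP-inhibited replicate 3 and without control replicate 2 (0.348 and 0.373). Leaving out each library moved Jund between 0.286 and 0.638 and Ier3 between 0.348 and 0.562. The stricter filter left 7 of the 10 genes, without Fosb, Fosl1 and Fosl2, of which 6 rose. All genes called higher numbered 4312 to 5606 and lower 4286 to 5692; library totals only gave 4537 higher and 5692 lower. Of the other bZIP partners 1 of 13 rose with library totals only (Mafg lost) and 1 of 9 with the stricter filter (Batf3 not tested), and 1 to 2 when a library was left out. Of SRF, ternary complex and CREB factors 1 fell with DESeq2, with no filter and with the replicate block, and 1 to 2 when a library was left out; the gene lost each time was Elk1. Same-numbered libraries did not deviate together (correlations of -0.0443, 0.00791 and 0.0287), so no pairing by replicate number was seen. With 3 libraries per group these correlations cannot exclude a pairing. The replicate block gave 5149 higher and 5061 lower genes, with 9 of the 10 members higher. RPKM by the longest transcript moved 9 of 20 group means beyond 1 SD, by the highest ratio for Fosb (0.298 RPKM in BMP-inhibited cells), and turned the order of Ier3 and Junb in controls. Few reads limit Fosb and Fosl1.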
